A study of Drosophila melanogaster with 6 samples.

Results

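The vacuolar proton pump (V-ATPase) genes of Drosophila melanogaster were taken as all genes in the deposited tables whose FlyBase symbol begins with Vha, which gave 33 of 17807 genes. Gene IDs were mapped to current symbols, and Vha44 was matched through its transcripts because its ID in the tables (FBgn0262511) has since been replaced (FBgn0287825). By subunit they fall into 13 genes of the cytosolic V1 domain, 18 genes of the membrane V0 domain and 2 genes for the accessory subunit related to ATP6AP1. The gene ATP6AP2, formerly VhaM8.9, no longer carries the prefix and is not a member; it was at 213 ± 16.7 TPM (SD, n = 6).

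RNA-seq of polyadenylated RNA was done on 6 libraries of whole lymph glands, the blood-forming organ of the larva, in the third instar. All libraries share 1 genotype, labelled wild-type, from larvae of stock BL-30140 crossed to strain w1118 and raised at 25 degrees on semi-defined medium. The labels separate them only by 2 experimenters, here set B (3 libraries) and set A (3 libraries). How many glands were pooled per library, and the age and sex of the larvae, are not stated in the labels, and although the series text calls the libraries biological replicates, nothing says which came from separate crosses, so the spread between them may be partly technical.

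The V-ATPase uses ATP to move protons into lysosomes, endosomes, Golgi and secretory vesicles. V1 binds and hydrolyses ATP, with catalytic subunit A and regulatory subunit B, and turns a central stalk that drives the ring of c subunits in V0 past subunit a, through which protons cross the membrane. Subunits A, B, E, G and c occur in several copies per pump. The fly genome carries several genes for most subunits, and several of the extra copies are known from the testis. In phagocytic blood cells the pump acidifies phagosomes, and acidic lysosomes also serve as the site of nutrient sensing by the TOR kinase complex.

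Total expected counts ran between 18689689 and 24804853 per library in set B and between 20082235 and 26003822 in set A, and every pair of libraries differed by more than sampling noise. All 12 listed blood cell markers had a TPM of 1 or more throughout, and they summed to between 20309 and 23971 TPM in set B and between 20269 and 29899 TPM in set A. Markers of neighbouring tissues set several libraries apart. Summed TPM of 5 ring gland genes (steroid synthesis enzymes of the adjoining endocrine organ) was 2054 in set B replicate 2 and 2131 in set A replicate 1, and 638 to 1239 in the other libraries. Salivary gland glue genes stood at 5319 TPM in set B replicate 2 (at most 79.1 TPM elsewhere), muscle genes at 1470 TPM in set B replicate 3 (at most 633 TPM elsewhere), fat body genes at 628 TPM in set A replicate 3 (at most 20.4 TPM elsewhere) and nervous system genes at 25.6 TPM in set B replicate 1 (at most 4.62 TPM elsewhere). In whole-organ RNA, fewer cells of a type and less RNA per cell cannot be told apart.

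Every subunit had at least 1 gene that was transcribed in all libraries, and 11 of the 14 subunits had exactly 1. For 5 of the 14 (B, C, E, G and H) there is only 1 Vha gene, so they could not have more. Of the 9 subunits with paralogs, 3 had at least 2 genes transcribed in all libraries. Of the 33 Vha genes, 17 reached a TPM of 1 in all 6 libraries (51.5%, beside 41.4% of all genes in the tables), 14 stayed below 1 in all 6, and 2 reached it in set B replicate 1 only. TPM is a relative abundance scaled for transcript length and to a sum of 1000000 per library, so levels of different genes can be set side by side. All genes below that level have a paralog above it: the 16 genes outside the 17 together held 134, 27 and 32 counts in set B replicates 1, 2 and 3 and 13, 10 and 7 counts in those of set A, between 0.00611% and 0.125% of all Vha counts in a library. Of all Vha genes, 14 had a mean of at least 100 TPM, a level that 5.71% of all genes in the tables reached. Without the 2 ring-gland-high libraries the count of 17 was the same.

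**Figure D1:**
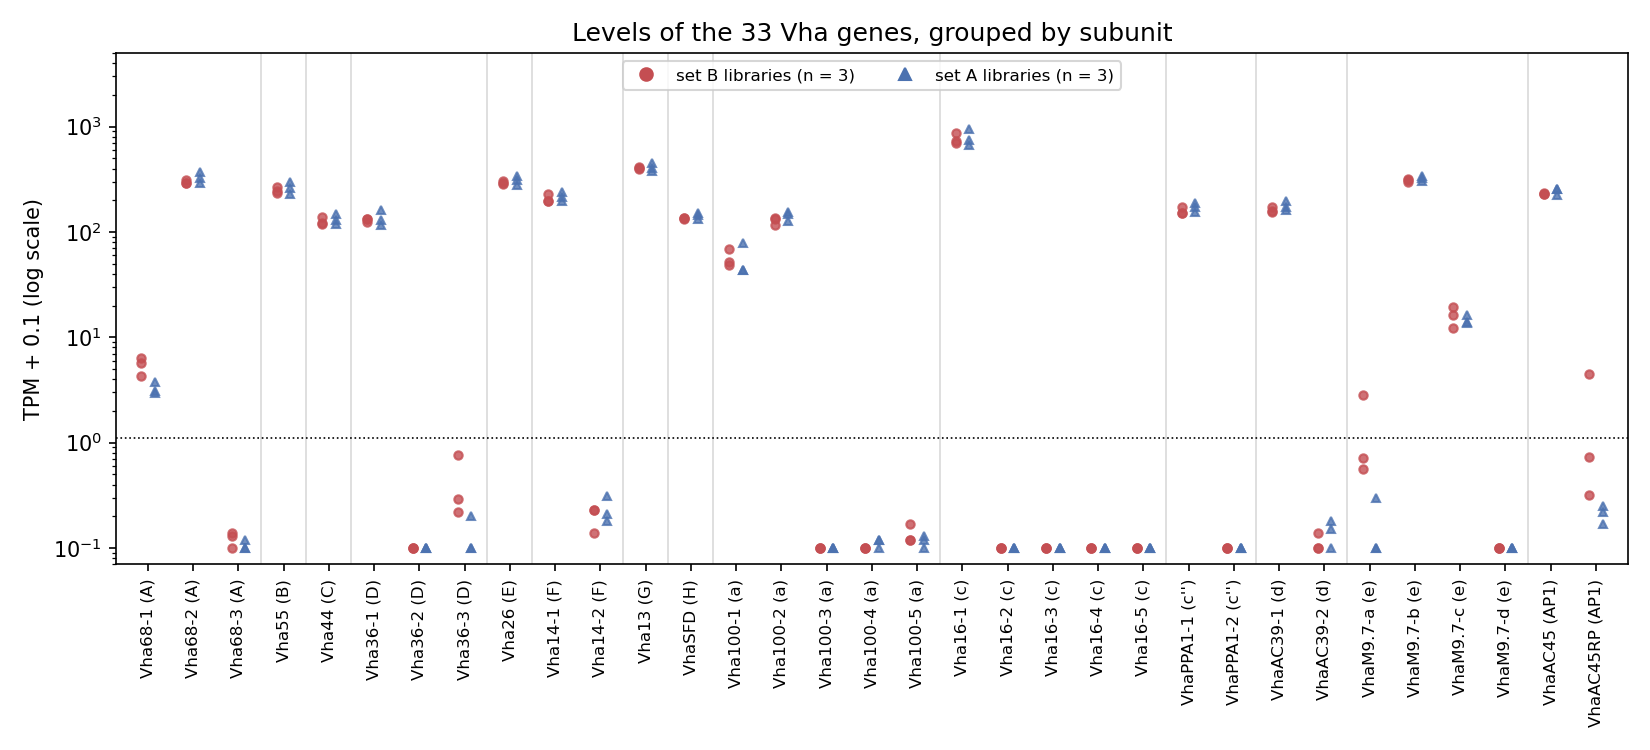
Levels of the 33 Vha genes in each library, as TPM + 0.1 on a log axis, grouped by subunit (letter in brackets, AP1 for the accessory subunit). Circles are set B libraries and triangles set A libraries, the dotted line marks a TPM of 1, and genes listed at 0 lie at 0.1. In 11 of 14 subunits a single gene lies above the line in every library, and 5 of the 14 have only 1 Vha gene.

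In V1, each subunit was carried by 1 gene at 129 to 407 TPM. Values below are for replicates 1, 2 and 3 of each set in that order, and a mean ± SD is over all 6 libraries. Subunit A, the ATP-hydrolysing subunit, came almost wholly from Vha68-2 (FBgn0263598, 2L at 12974322 to 12978607), with 288, 310.4 and 289 TPM in set B, against 368, 289 and 325 TPM in set A. Its paralog Vha68-1 (FBgn0265262, 2L at 13000770 to 13004107) had 6.19, 5.62 and 4.19 TPM in set B, against 3.65, 2.96 and 2.84 TPM in set A. Vha68-2 thus supplied 97.9% to 99.1% of subunit A transcripts. For Vha68-1 the 3 set B libraries lay above the 3 set A libraries, as they did, in counts scaled to library size, for 4.17% of all genes tested between the sets. The remaining copy, Vha68-3, was at 0.0150 ± 0.0176 TPM with at most 2 counts in a library.

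Subunit B, which forms the hexamer with A, has a single gene, Vha55, which had 243, 266 and 235 TPM in set B, against 299, 229 and 262 TPM in set A. The sets overlapped, and the highest value was that of set A replicate 1. Vha44, the single gene of subunit C, which links V1 to V0, had 121, 138 and 119 TPM in set B, against 148, 118 and 130.4 TPM in set A. It shares 148 exonic bases (3.68%) with Hmgs on the opposite strand, so a small part of its counts is uncertain. The central stalk subunit D came from the single-exon gene Vha36-1, with 124, 134 and 132 TPM in set B, against 161, 117 and 129.9 TPM in set A. Its paralogs were far lower, with Vha36-3 at 0.178 ± 0.247 TPM and Vha36-2 at 0 counts in all libraries.

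Subunit E, part of the peripheral stalks, is encoded by Vha26 alone, which had 287, 301 and 291 TPM in set B, against 339, 281 and 314 TPM in set A. Subunit F, the partner of D in the stalk, came from Vha14-1, also a single-exon gene, with 198, 229 and 198 TPM in set B, against 240.2, 198 and 214 TPM in set A. Its paralog Vha14-2 had between 1 and 4 counts per library, 0.117 ± 0.0571 TPM. Vha13, the gene of peripheral stalk subunit G, was the highest V1 gene, with 395, 406 and 409.9 TPM in set B, against 449.9, 378 and 403 TPM in set A. VhaSFD, which encodes the regulatory subunit H, had 133, 136 and 135 TPM in set B, against 149.8, 131 and 145 TPM in set A, and its coefficient of variation over the 6 libraries, 5.36%, was among the smallest of the Vha genes.

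In V0, the proton-carrying ring subunit c made up 44.7% to 50.1% of transcripts. Vha16-1 (2R at 6625242 to 6633090), which encodes ring subunit c, was the highest of all Vha genes and ranked 168 among all genes in the tables, with 734, 871 and 700.3 TPM in set B, against 943, 665 and 749 TPM in set A. It had 33646 to 57217 counts per library, while the paralogs Vha16-2, Vha16-3, Vha16-4 and Vha16-5 had 0 counts in every library. A count of 0 allows up to 3 counts per library, so Vha16-1 was at least 1645-fold to 2312-fold higher than each of them. This limit covers counting error only. Subunit c'', a related ring protein, came from VhaPPA1-1, with 151, 172 and 151 TPM in set B, against 189.7, 154 and 172 TPM in set A, and VhaPPA1-2 had 0 counts, which puts VhaPPA1-1 at least 430.3-fold higher. Subunit d, which couples the stalk to the ring, came from VhaAC39-1, with 153, 173 and 159 TPM in set B, against 195, 163 and 173 TPM in set A. VhaAC39-2 had 4 counts in all libraries together and averaged 0.0283 ± 0.0337 TPM.

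Subunit e, a small membrane protein, had a main gene and a minor one. VhaM9.7-b had 298, 318 and 314 TPM in set B, against 343, 302 and 323 TPM in set A. VhaM9.7-c had 16.1, 19.4 and 12.1 TPM in set B, against 16.1, 13.8 and 13.6 TPM in set A, highest in set B replicate 2 and lowest in set B replicate 3. VhaM9.7-b made up 94.1% to 96.1% of subunit e transcripts, VhaM9.7-a averaged 0.668 ± 1.04 TPM, and VhaM9.7-d had 0 counts, so that VhaM9.7-b was at least 543-fold higher. The accessory subunit gene VhaAC45, related to human ATP6AP1, had 228, 233 and 231 TPM in set B, against 255, 222 and 258 TPM in set A. Its paralog VhaAC45RP averaged 0.928 ± 1.70 TPM, with 113 of its 145 counts in set B replicate 1.

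Subunit a, the membrane subunit that forms the proton path and directs the pump to its compartment, had 2 genes at well-measured levels. Vha100-2 (FBgn0028670, 3R at 18390323 to 18399169), known from epithelia, had 131, 116 and 136 TPM in set B, against 128, 148 and 154 TPM in set A. Vha100-1 (FBgn0028671, 3R at 29131193 to 29137980), known from synaptic vesicles of neurons, had 51.9, 69.3 and 48.5 TPM in set B, against 77.7, 43.2 and 43.6 TPM in set A. Vha100-2 was the higher gene in all 6 libraries, by 1.31 ± 0.48 on the log2(TPM + 0.1) scale (SD, n = 6). Little was seen of the other 3 genes: Vha100-5 had 8 counts in all libraries together, Vha100-4 had 2 and Vha100-3 had 0, which puts Vha100-2 at least 1748-fold above Vha100-3.

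The order of paralogs was compared within libraries. Of 36 pairs of genes for the same subunit, 25 included a gene with a mean TPM of at least 1, and in these the same gene was higher in 6 of 6 libraries. For 10 of the 25 the lower gene had 0 counts throughout, which fixes the direction, so this count is a description. Both genes reached a TPM of 1 in all libraries in 3 pairs. The difference was 1.31 ± 0.48 for Vha100-2 over Vha100-1, 4.39 ± 0.24 for VhaM9.7-b over VhaM9.7-c and 6.22 ± 0.51 for Vha68-2 over Vha68-1 (log2, SD, n = 6). In each of these 3 pairs the two-sided exact sign-flip permutation p was 0.031, both raw and adjusted (Benjamini-Hochberg, 25 pairs), which is the lowest value 6 libraries allow. All 25 pairs had this same p, so the adjustment could not change it and adds no support. In 19 of the 25 pairs the difference exceeded 8 on this scale, where low genes are held up by the pseudocount. Paralogs could be told apart in counting, since the posterior SD of the count was at most 0.0885% of the count for Vha68-1 and lower for all other Vha genes with counts.

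Summed over paralogs, the subunits formed an order of levels. Subunit c was highest at 777 ± 107 TPM, followed by G at 407 ± 23.8, e at 332 ± 16.1, A at 316 ± 31.0, E at 302 ± 21.5 and B at 256 ± 25.5 TPM (SD, n = 6). Apart from e, these are the subunits present in several copies per pump, a grouping that was made after the values were seen. The accessory subunit was at 239 ± 14.5 TPM, F at 213 ± 18.3, a at 191 ± 8.84, d at 169 ± 14.7, c'' at 165 ± 15.7, H at 138 ± 7.42, D at 133 ± 14.97 and C at 129 ± 12.3 TPM. Ranges over the libraries did not overlap between c and G, between G and e, and between c'' and H, while all other neighbours in this order overlapped. Even so, most neighbours kept their order within libraries: d was above c'' in 6 of 6 libraries, by 1.003-fold to 1.06-fold, whereas D was above C in 3 of 6. The ratio of summed V1 to summed V0 transcripts was 1.17, 1.11 and 1.19 in set B and 1.14, 1.17 and 1.18 in set A.

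Barely detected paralogs lie near transcribed ones at 3 places of the BDGP6.54 annotation. Vha68-3 starts 178 bp downstream of Vha68-2 on the same strand of 2L, with no gene between them. On 3R, Vha100-4 lies 517 bp from Vha100-2, again on the same strand with no gene between, and VhaPPA1-2 lies 2052 bp from VhaPPA1-1 with 1 gene between. The levels within these pairs were 0.0150 ± 0.0176 TPM for Vha68-3 beside 312 ± 31.4 TPM for Vha68-2, and 0.00667 ± 0.0103 TPM for Vha100-4 beside 136 ± 13.8 TPM for Vha100-2. Vha16-3 and Vha16-2, both at 0 counts, lie 985 bp apart on 3L with 1 gene between. VhaPPA1-2 also overlaps CG3817 on the opposite strand, by 12 exonic bases, and stayed at 0 counts while CG3817 was at 32.1 TPM. In gene structure, the transcript with the longest coding sequence had a median of 4 exons (range 1 to 11) in the 17 genes transcribed in all libraries, and of 2 exons (range 1 to 4) in the other 16. It had a single exon in 3 of the 17 and in 7 of the 16. Protein lengths were close for most paralogs, such as 614 residues for both Vha68-1 and Vha68-2 and 350 for both VhaAC39-1 and VhaAC39-2, while Vha68-3 has 743, Vha16-5 has 193 beside 159 for Vha16-1, and Vha36-2 has 373 beside 246 for Vha36-1.

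The balance between the genes of subunit a moved between libraries while their sum moved less. Vha100-1 made up 28.3%, 37.4% and 26.3% of subunit a transcripts in replicates 1, 2 and 3 of set B, and 37.8%, 22.6% and 22.1% in those of set A. Summed subunit a was among the steadiest values, between 183 and 206 TPM with a coefficient of variation of 4.62%, against 25.9% for Vha100-1 and 10.2% for Vha100-2. The share was highest in set A replicate 1 and set B replicate 2, the libraries with the highest ring gland marker sums. The ring gland sums were 1038, 2054 and 1239 TPM in set B and 2131, 740 and 638 TPM in set A. The order of the 6 libraries by that sum and by the Vha100-1 share was the same except that set B replicates 1 and 3 changed places. Summed nervous system markers were at 25.6, 4.62 and 2.28 TPM in set B and 1.56, 2.16 and 1.84 TPM in set A. Summed blood cell markers were lowest in set A replicate 1 and set B replicate 2, at 20269 and 20309 TPM, and lay between 23790 and 29899 TPM elsewhere. The part of any of these tissues in the share of Vha100-1 was not tested. In the 4 libraries other than set A replicate 1 and set B replicate 2 the share lay between 22.1% and 28.3%. The abundance-weighted transcript length of Vha100-1, which has 10 annotated transcripts, spanned 0.309% of its mean over the libraries.

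**Figure D2:**
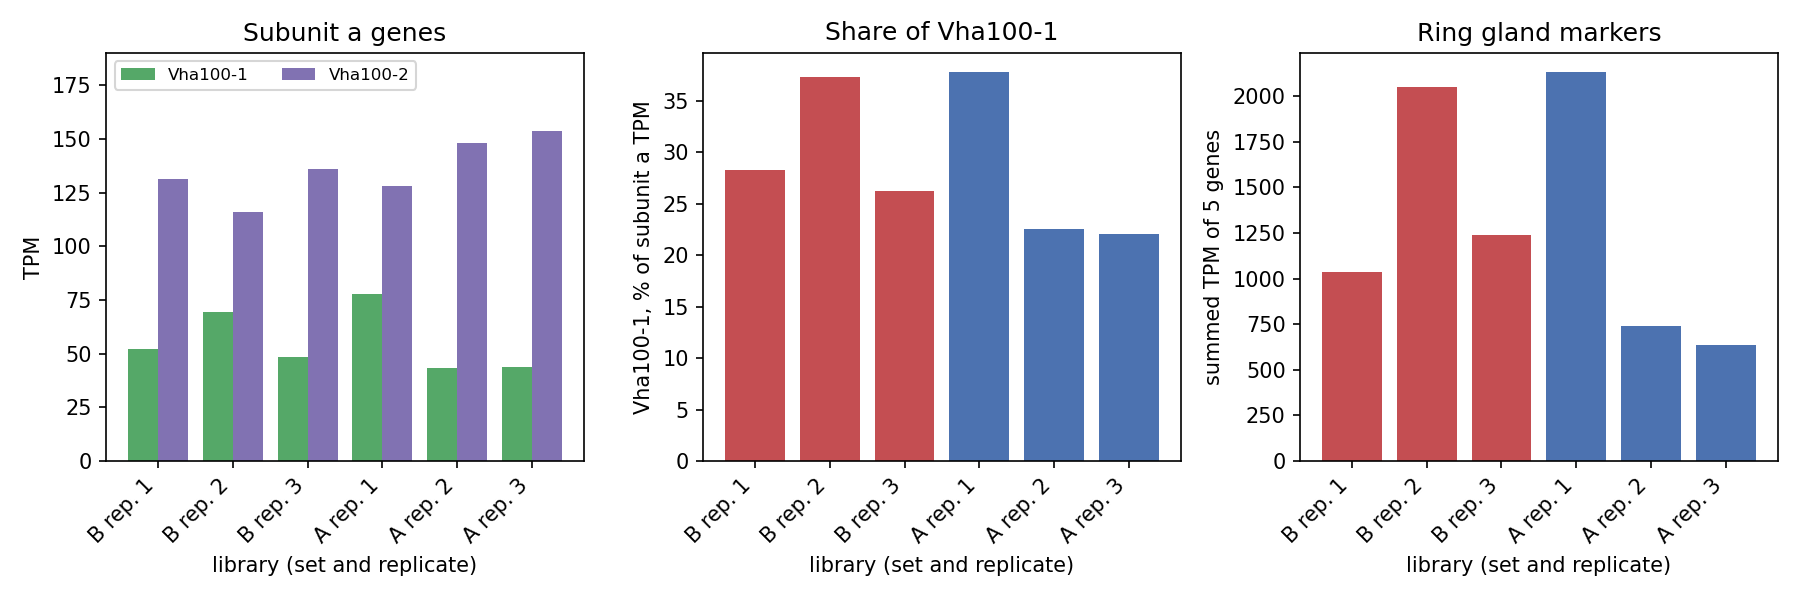
Left, TPM of Vha100-1 and Vha100-2 in each library. Middle, share of Vha100-1 in summed subunit a TPM, and right, summed TPM of 5 ring gland marker genes (red bars set B, blue bars set A). The share reaches 37.4% and 37.8% in set B replicate 2 and set A replicate 1, the libraries with ring gland sums of 2054 and 2131 TPM.

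Most of the transcribed genes of the pump were highest in the same library. Summed over all Vha genes, TPM was 3567, 3899 and 3567 in set B and 4306, 3455 and 3813 in set A. Of the 17 genes, 13 had their highest TPM in set A replicate 1, as did 26.1% of the 7371 genes that reached a TPM of 1 in all libraries. With counts scaled to library size by the TMM method it was also 13 of 17, beside 24.5% of the 8491 genes tested. The level in set A replicate 1 over the median of the other libraries had a median that was 1.195-fold for the 17 genes (range 0.871-fold to 1.60-fold) and 1.01-fold for all detected genes. In TPM, the exceptions were Vha68-1 (highest in set B replicate 1), VhaM9.7-c (set B replicate 2), and Vha100-2 and VhaAC45 (set A replicate 3). This library had the most counts, the smallest share of mitochondrial transcripts (1.35%, against 2.08% to 3.85% elsewhere) and the highest ring gland sum, and their part in its Vha levels was not tested. The coefficient of variation over libraries had a median of 9.53% in the 17 genes, beside 10.1% in all detected genes.

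**Figure D3:**
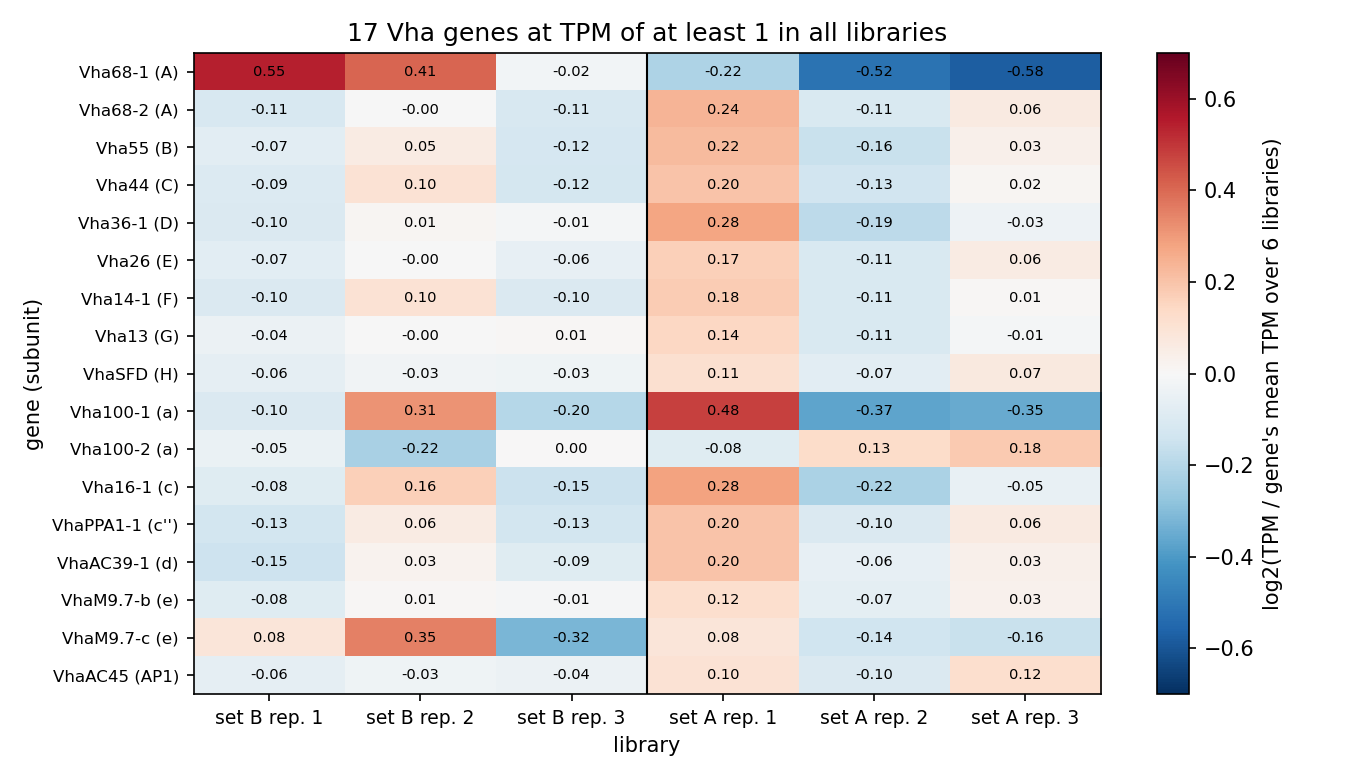
The 17 Vha genes at TPM of at least 1 in all libraries, as log2 of TPM over the gene's mean over 6 libraries, with red above and blue below the mean and the value printed in each cell. Set B libraries are left of the line and set A libraries right of it. In set A replicate 1, 15 of the 17 genes are above their mean, and Vha100-1 and Vha100-2 run in opposite directions in most libraries.

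As shares of all transcripts of the 17 genes, the genes of several core subunits varied less than as levels. The coefficient of variation of the share was 1.97% for Vha55, 2.10% for Vha44, 2.14% for Vha14-1 and 2.37% for Vha26, while their levels varied by 9.96%, 9.53%, 8.56% and 7.12%. The genes whose shares varied most were Vha68-1 at 34.7%, Vha100-1 at 18.6%, Vha100-2 at 15.1% and VhaM9.7-c at 14.98%. All 4 belong to subunits with more than 1 transcribed gene. The main genes of subunits A and e did not vary so, with 2.96% for Vha68-2 and 3.87% for VhaM9.7-b. Vha68-1, VhaM9.7-c and Vha100-1 also had the lowest mean levels of the 17 genes, at 4.24, 15.2 and 55.7 TPM.

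Of the 8 Vha genes with counts that stayed below a TPM of 1 in some library, 2 were highest in set B replicate 1, 2 in set B replicate 3, 1 in set B replicate 2 and 2 in set A replicate 1. The remaining gene, Vha100-4, was tied between set A replicates 2 and 3, at 0.02 TPM on 1 count each. The 2 that were highest in set B replicate 1, VhaAC45RP and VhaM9.7-a, were also the only ones to reach a TPM of 1. VhaAC45RP had 4.38, 0.63 and 0.22 TPM in set B, against 0.15, 0.07 and 0.12 TPM in set A. VhaM9.7-a had 2.74, 0.61 and 0.46 TPM in set B, against 0, 0 and 0.20 TPM in set A. Vha36-3 had 0.12, 0.19 and 0.66 TPM in set B, against 0, 0.10 and 0 TPM in set A. For these 3 of the 8 genes the set B values were all above the set A values, as they were for 4.28% of the 4183 genes with counts that were not tested between sets. They rest on few counts: VhaM9.7-a had 16 and VhaAC45RP 113 in set B replicate 1, and at most 3 and 15 in any other library. Vha36-3 had 2 counts in set B replicate 1 and also 2 in set A replicate 2, so only scaling separates its sets. No difference between the sets is read from these 3 genes. Set B replicate 1 was also highest for Vha68-1, a gene transcribed in all libraries. The sum of 6 nervous system genes was highest in this library too, at 25.6 TPM (elav at 13.45, nSyb at 5.52, repo at 2.63 and Syt1 at 2.11 TPM). In replicates 1, 2 and 3 of set B the sum was ordered like VhaAC45RP, VhaM9.7-a and Vha68-1, but in set A it was not: the sum was 1.56, 2.16 and 1.84 TPM there, lowest in the replicate with the highest Vha68-1 and VhaAC45RP. All 6 of these genes were highest in set B replicate 1, with brp at 1.09 TPM and Gad1 at 0.760 TPM there. Their part in the levels of VhaAC45RP, VhaM9.7-a and Vha68-1 was not tested. Vha36-3 was highest in set B replicate 3, on 14 counts. Summed muscle markers were at 405, 633 and 1470 TPM in set B and 256, 426 and 376 TPM in set A, and their part in the level of Vha36-3 was not tested.

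**Figure D4:**
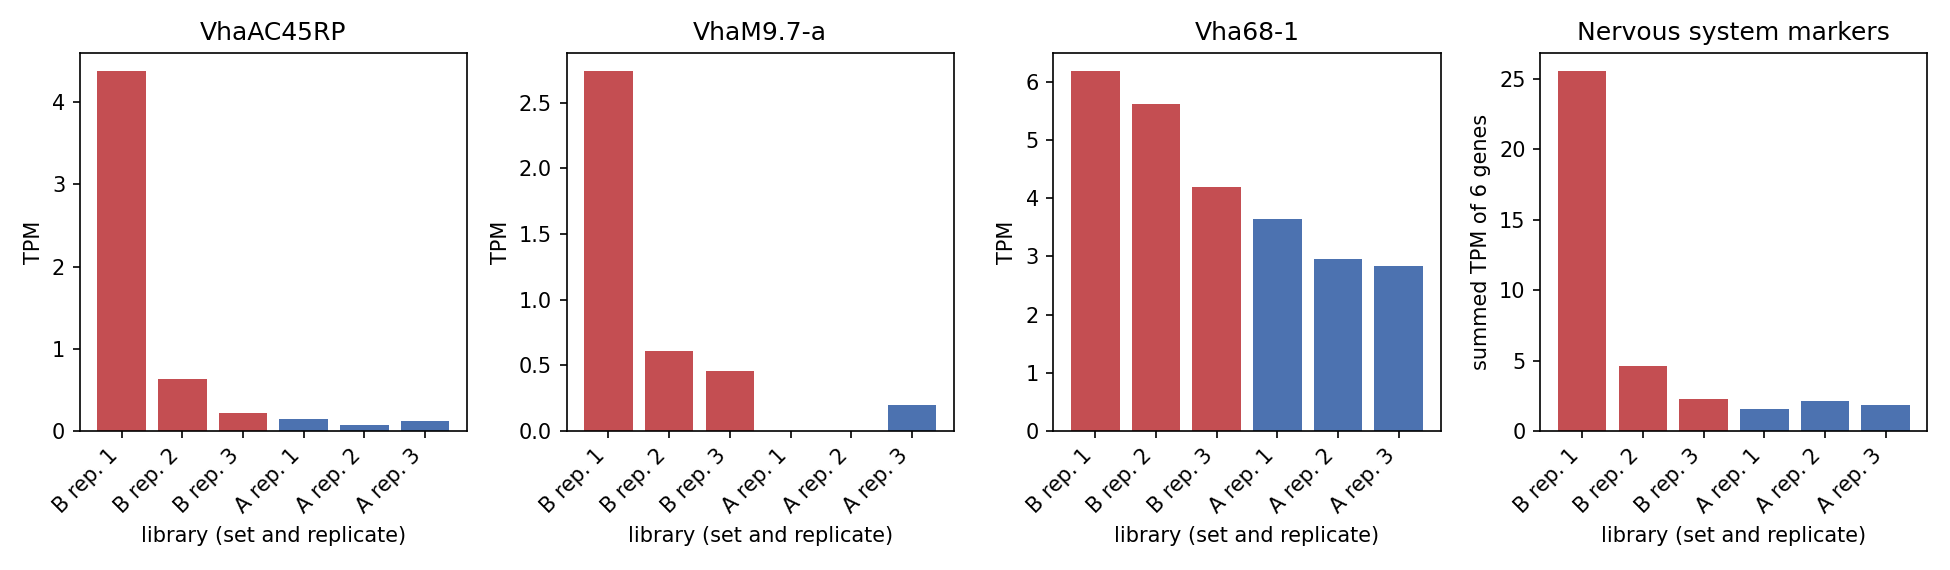
TPM of VhaAC45RP, VhaM9.7-a and Vha68-1 and the summed TPM of 6 nervous system marker genes in each library (red bars set B, blue bars set A; each panel has its own axis from 0). Set B replicate 1 is the highest library in all 4 panels, at 4.38, 2.74, 6.19 and 25.6 TPM.

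The pump was next compared between experimenters, and no Vha gene was called. Of 17 Vha genes that passed the expression filter of edgeR, 0 had an adjusted p under 0.05 by its quasi-likelihood test, and likewise 0 of all 8491 genes (0.0%). At an unadjusted p under 0.05 there was 1 Vha gene, Vha68-1, beside 4.16% of all genes. DESeq2 called 0 of the 17, with 1 at an unadjusted p under 0.05, and 22 genes in all. Vha68-1 averaged 5.33 ± 1.03 TPM in set B and 3.15 ± 0.437 TPM in set A (SD, n = 3 each), a log2 fold change of 0.73 (SE 0.18) with an edgeR adjusted p of 0.9997 and a DESeq2 adjusted p of 0.206. Over the 12 fits run its adjusted p was between 0.206 and 1. Its log2 fold change was between 0.63 and 0.85 in them. In TMM-scaled counts, ranges did not overlap for Vha68-1, higher in set B as were 4.17% of all genes tested, and for VhaAC39-1, lower in set B as were 3.23%.

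The estimates of the other Vha genes were small and mostly negative. Of the 17, 14 had a negative log2 fold change of set B over set A, as did 51.6% of all genes tested, and the median was -0.08, beside -0.0045 for all genes. After Vha68-1, the smallest p values belonged to Vha68-2, at 296 ± 12.7 TPM in set B and 327 ± 39.5 TPM in set A (log2 fold change -0.16, SE 0.089), and VhaAC39-1, at 162 ± 9.97 and 177 ± 16.2 TPM in set B and set A (-0.15, SE 0.086). They were followed by Vha100-2, at 128 ± 10.5 TPM in set B and 143 ± 13.6 TPM in set A (-0.19, SE 0.12), and VhaPPA1-1, at 158 ± 12.1 TPM in set B and 172 ± 18.0 TPM in set A (-0.14, SE 0.090). All 4 had an edgeR adjusted p of 0.9997. Leaving out single libraries moved these estimates. The count of negative estimates and the median were taken again only without set A replicate 1. Without it, 11 of the 18 Vha genes then tested had a negative estimate, as did 49.0% of all genes then tested. The median of the 18 was -0.016, beside 0.0042 for all genes. Without set A replicate 1 the estimates were -0.09 for Vha68-2, -0.09 for VhaAC39-1 and -0.08 for VhaPPA1-1. That of Vha100-2 moved away from 0, to -0.28. The estimate of Vha100-2 was -0.11 without set B replicate 2 and -0.27 without set B replicate 3. Without set B replicate 1 the estimates were -0.13 for Vha68-2, -0.10 for VhaAC39-1, -0.10 for VhaPPA1-1 and -0.19 for Vha100-2. Without both ring-gland-high libraries they were -0.11, -0.13, -0.13 and -0.20 in the same order. The genes with the lowest p, Vha68-1 and Vha68-2, both encode subunit A and had estimates of opposite sign. The difference between them was not tested.

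**Figure D5:**
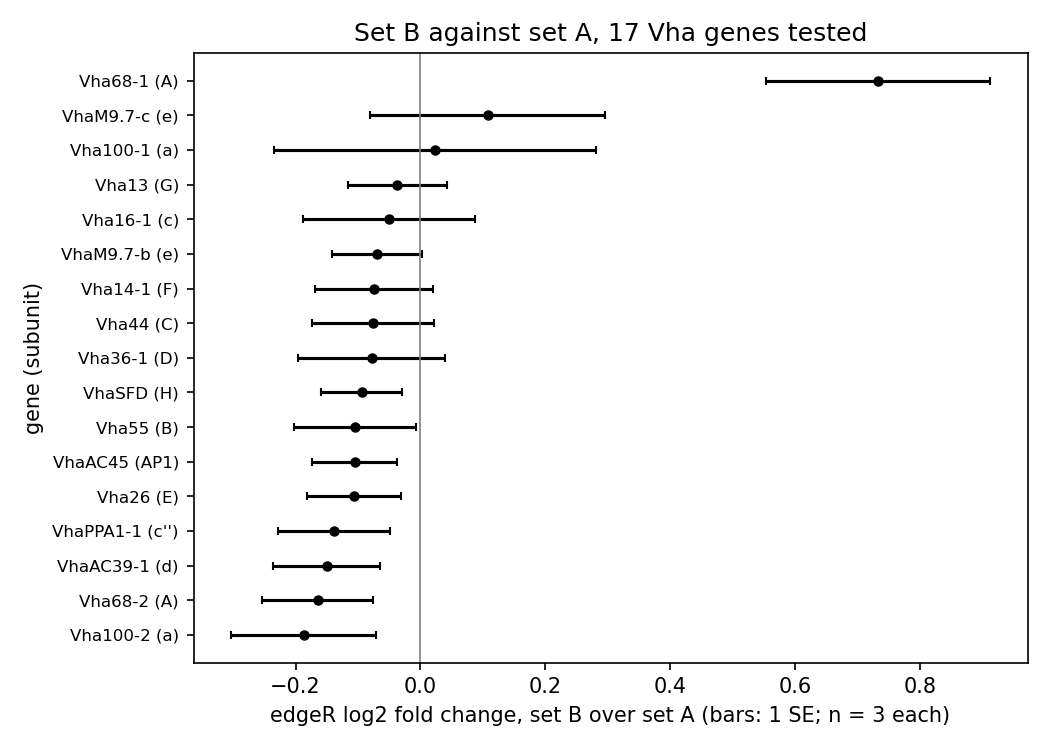
edgeR log2 fold change of set B over set A for the 17 Vha genes tested, with bars of 1 standard error (3 libraries in each set). All but 3 genes lie left of 0, Vha68-1 stands at 0.73, and no gene had an adjusted p under 0.05.

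Genes that assemble, regulate or work beside the pump were read from the same fit. Of 13 genes of assembly and regulation, all were above a TPM of 1 in every library and 0 were called by edgeR, with 0 at an unadjusted p under 0.05 and a median log2 fold change of -0.06. The Rabconnectin genes Rbcn-3A and Rbcn-3B, needed for pump activity in the fly, were at 14.9 ± 1.05 and 10.2 ± 0.643 TPM. Mitf, the transcription factor known in the fly to activate V-ATPase and lysosomal genes, was at 43.0 ± 1.82 TPM, with 42.4, 43.8 and 40.7 TPM in set B and 43.6, 41.6 and 45.8 TPM in set A. The Rag GTPase genes RagA-B and RagC-D and the 5 Lamtor genes, which anchor the TOR complex to the lysosome, were at 38.8 to 77.5 TPM. Of these 13 genes, 10 were highest in set A replicate 1.

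Of 22 matched lysosomal genes, 19 had a TPM of 1 or more throughout, and 0 of the 19 tested were called by edgeR, with 0 at an unadjusted p under 0.05 and a median log2 fold change of -0.04. The protease gene cathD was among the highest, with 877, 1287 and 726 TPM in set B and 1405, 759 and 756 TPM in set A. Lamp1, which encodes a lysosomal membrane protein, was at 507 ± 45.8 TPM, and the chloride transporter gene ClC-b was at 63.6 ± 11.1 TPM. Set A replicate 1 held the highest value for 14 of the 19 and set B replicate 2 for the other 5. The sterol transporter gene Npc1a ranged from 98.2 to 421 TPM, with 137, 278 and 150.5 TPM in set B and 421, 110.2 and 98.2 TPM in set A. The part of ring gland tissue in these lysosomal levels was not tested. Of tissues where the pump is abundant or where paralogs are known, the Malpighian tubule list (1 of 5 genes detected throughout) summed to between 18.5 and 25.04 TPM in set B and between 17.6 and 28.2 TPM in set A, of which Irk1 alone made up 17.3 to 27.6 TPM; Best2 was at 0.260 to 0.960 TPM, and NHA1, Uro and ZnT35C were at or below 0.09 TPM. The testis list (1 of 5 genes detected throughout) summed to between 6.58 and 9.46 TPM in set B and between 8.52 and 9.63 TPM in set A, most of it from bol at 6.19 ± 0.889 TPM, with Mst98Cb at 1.02 ± 0.486, Mst87F at 0.752 ± 0.620 and Mst98Ca at 0.613 ± 0.434 TPM and dj at 0 TPM in all libraries (SD, n = 6). The part of these tissues in the Vha levels was not tested.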

How the data were processed

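Per the submitters' processing notes, reads were processed with CASAVA 1.8.2, Trimmomatic 0.35, STAR 2.7.1a and RSEM 1.2.28 on build BDGP6; the annotation release and the use of strand in counting are not given in the sources used here. The authors deposited 1 RSEM gene table per library. The deposited expected counts are the authors' RSEM estimates of reads per gene, not normalized, per the file headers. The deposited TPM values are relative abundances scaled for effective length, and the deposited FPKM values were used only as an alternative. Lengths and the posterior standard deviation of the count were read from the same tables. Of 17807 genes, 17710 were matched to symbols by ID, 56 through transcripts and 41 not. Positions are those of Ensembl release 115 (BDGP6.54), in which 10316 of 10341 single-transcript genes had the same length.

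Expected counts were rounded and tested over all genes with edgeR 4.0.16 (quasi-likelihood, its default expression filter, TMM, Benjamini-Hochberg, threshold 0.05) in R 4.3.3; DESeq2 1.42.0, other scaling, no filter, a replicate block and leaving out libraries were alternatives. Paralogs were compared by exact sign-flip tests of log2(TPM + 0.1). Other steps used Python 3.11.15, numpy 2.4.6, pandas 2.3.3 and matplotlib 3.10.9. Every Vha gene is named; fold changes are given for the 5 with the smallest edgeR p. The members, gene lists and subunit groups were chosen with earlier results of these data known. Of listed marker and pathway genes, phm and Tpp2 were not matched by symbol.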

Additional observations from a re-analysis of the deposited data

Results flagged for a closer look

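Among 20 Vha genes with at least 10 counts in some library, 3 had an extreme library whose distance to the next value, over the whole range, exceeded Dixon's 95% critical value for 6 samples. Chance alone marks about 1 in 20, but VhaM9.7-a and Vha36-3 passed the count minimum only through the extreme library itself, so the number of such genes cannot be set against that share. For VhaAC45RP the extreme was set B replicate 1 at 4.38 TPM, while the other libraries lay at 0.0700 to 0.630 TPM. VhaM9.7-a was extreme there too, at 2.74 TPM on 16 counts, while the other libraries lay at 0 to 0.610 TPM. Vha36-3 reached 0.660 TPM on 14 counts in set B replicate 3, while the other libraries lay at 0 to 0.190 TPM.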

How the results depend on the processing

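With DESeq2 on the same genes, 22 of 8491 genes were called between sets, 20 of them higher in set B, against 0 with edgeR; no Vha or pathway gene was among them, and the cause was not tested. RLE scaling, no expression filter and leaving out each library or both ring-gland-high libraries (an alternative chosen after seeing the data) gave 0 called genes. With a replicate block it was also 0; same-numbered libraries did not deviate together (correlations of -0.18, -0.24 and 0.27), so the numbers were not taken to pair libraries. The 25 paralog pairs, 10 of them against a gene at 0 counts, kept 1 direction with a pseudocount of 1, with FPKM and when each library was left out. None of these settings can reverse an order that holds within all 6 libraries, so they add no evidence for it. With 5 libraries the exact p cannot fall under 0.0625. Of the Vha genes, 16 reached a TPM of 5 in all libraries and 17 a TPM of 0.5. The genes at a few counts per library are limited by counting error.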
